A study of Mus musculus with 24 samples.

Results

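The potassium channel genes are described here across 12 groups of sorted mouse cortical projection neurons. They were taken as every entry of the deposited expression table whose name starts with Kcn, 95 of 32310 entries. RNA had been sequenced from 3 kinds of neuron sorted by FACS (fluorescence-activated cell sorting) from CD1 mice, an outbred strain, and no group carried a mutation or a treatment. Callosal projection neurons (labelled CPN) join the hemispheres through the corpus callosum. Subcerebral neurons project to targets below the forebrain, such as the brainstem and spinal cord, and corticothalamic neurons project to the thalamus. Each subtype was collected at embryonic days 15, 16 and 18 (E15, E16, E18) and at postnatal day 1 (P1), with 2 libraries in each of the 12 groups. The labels name neither the sort markers nor the animals behind each library.

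Potassium channels let potassium leave the cell and so set the resting potential, end the action potential and pace repetitive firing. The genes fall into voltage-gated pores (Kcna, Kcnb, Kcnc, Kcnd, Kcnh and Kcnq), silent subunits that only work inside another pore (Kcnf, Kcng, Kcns and Kcnv), calcium- or sodium-activated pores (Kcnma, Kcnn, Kcnt), inward rectifiers (Kcnj), two-pore-domain leak channels (Kcnk), and accessory subunits (Kcnab, Kcne, Kcnip and Kcnmb). Many of the fast voltage-gated types are known to be added as neurons mature.

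The table holds 1 value per group, the authors' pooled value for the 2 libraries, so no value has an SD or n of its own. The unit was taken to be FPKM, a count of fragments divided by transcript length and by library size, so levels can be compared between genes, and the sequencing depth behind them is unknown. A difference between groups was tested with limma on log2(FPKM + 1), in a model that adds an effect of stage to an effect of subtype, fitted to all 12 values. Differences are given on that scale ± the standard error (SE) of the fit, a scale that understates changes of low genes. Because the residual of this fit is the interaction of stage with subtype, a p-value measures how even a difference was across stages or subtypes and says nothing of the spread of libraries. A member was called where the Benjamini-Hochberg adjusted p over all 13946 entries tested was under 0.05. In sorted bulk samples, fewer cells with a transcript and less transcript per cell cannot be told apart, and a stage effect cannot be told apart from anything its 3 groups shared in collection or preparation.

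The summed markers followed the labels: 5 callosal genes summed to between 547 and 690 FPKM in callosal neurons and to at most 90.5 elsewhere. The 5 subcerebral genes summed to between 718 and 789 in subcerebral, at most 245 in callosal and at most 297 in corticothalamic neurons. Of them 4 were highest in subcerebral neurons at all 4 stages. The other, Crym, was higher in corticothalamic than subcerebral neurons at E15 (16.4 against 8.66) and E16 (59.6 against 42.6). The 5 corticothalamic genes summed to between 499 and 733 in corticothalamic and between 60.3 and 125 in callosal neurons. In subcerebral neurons the sum ranged from 67.0 up to 453, the highest value being that of E15. Of these genes 4 were highest in corticothalamic neurons at all 4 stages. The other, Sox5, was higher in subcerebral than corticothalamic neurons at E15 (128 against 106). The median absolute change from E15 to E16 was 0.22 on the log2 scale in subcerebral neurons, 0.15 in callosal and 0.14 in corticothalamic neurons, and from E18 to P1 it was between 0.27 and 0.28 in all 3. Of 6 interneuron genes, the sum was highest in E15 callosal neurons, at 53.0, where Dlx1 was 20.0 and Lhx6 was 16.3, and it lay between 1.82 and 16.1 over the 3 subtypes otherwise.

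Potassium channel transcripts were a mixture of a few abundant and many scarce genes. In all, 11 members had a mean of at least 10 FPKM over the 12 columns, 46 had a mean between 1 and 10, and 38 had a mean under 1. Kcnmb4, the neuronal beta subunit of the BK channel, ranged from 22.1 in E15 callosal to 103 in P1 subcerebral neurons. It took between 6.01% and 20.0% of the summed member FPKM of a column. That sum ran from 368 in E15 callosal to 566 in P1 corticothalamic neurons.

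At least 1 FPKM in at least 2 columns was reached by 62 members, 65.3% of them against 43.2% of all entries, and these were tested. The other 33 reached 1 FPKM in no column. They include all 5 Kcne genes, single-span accessory subunits best known from heart and epithelia, the renal and glial inward rectifiers Kcnj1, Kcnj10 and Kcnj16, and Kcnq1, best known from heart. Kcnj14 came nearest to the limit, at 0.981 FPKM in P1 callosal neurons. Only Kcnk16 was listed at 0 in all 12 columns. Kcng3, a silent subunit, stayed under the limit but was unevenly spread: it was 0.521 and 0.951 in E15 and E16 callosal neurons, and at most 0.0481 in any group of the other subtypes. The exons of 29 members overlap another gene in the GENCODE M21 annotation, mostly on the opposite strand. Kcnab1, Kcna6, Kcnh3, Kcnip4, Kcnk1, Kcnmb4 and Kcnq5 are among those named below. For Kcnab2 and Kcnk4 the other gene lies on the same strand. The annotation behind the deposited values is not given, nor is whether strand was used in the counting.

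**Figure D1:**
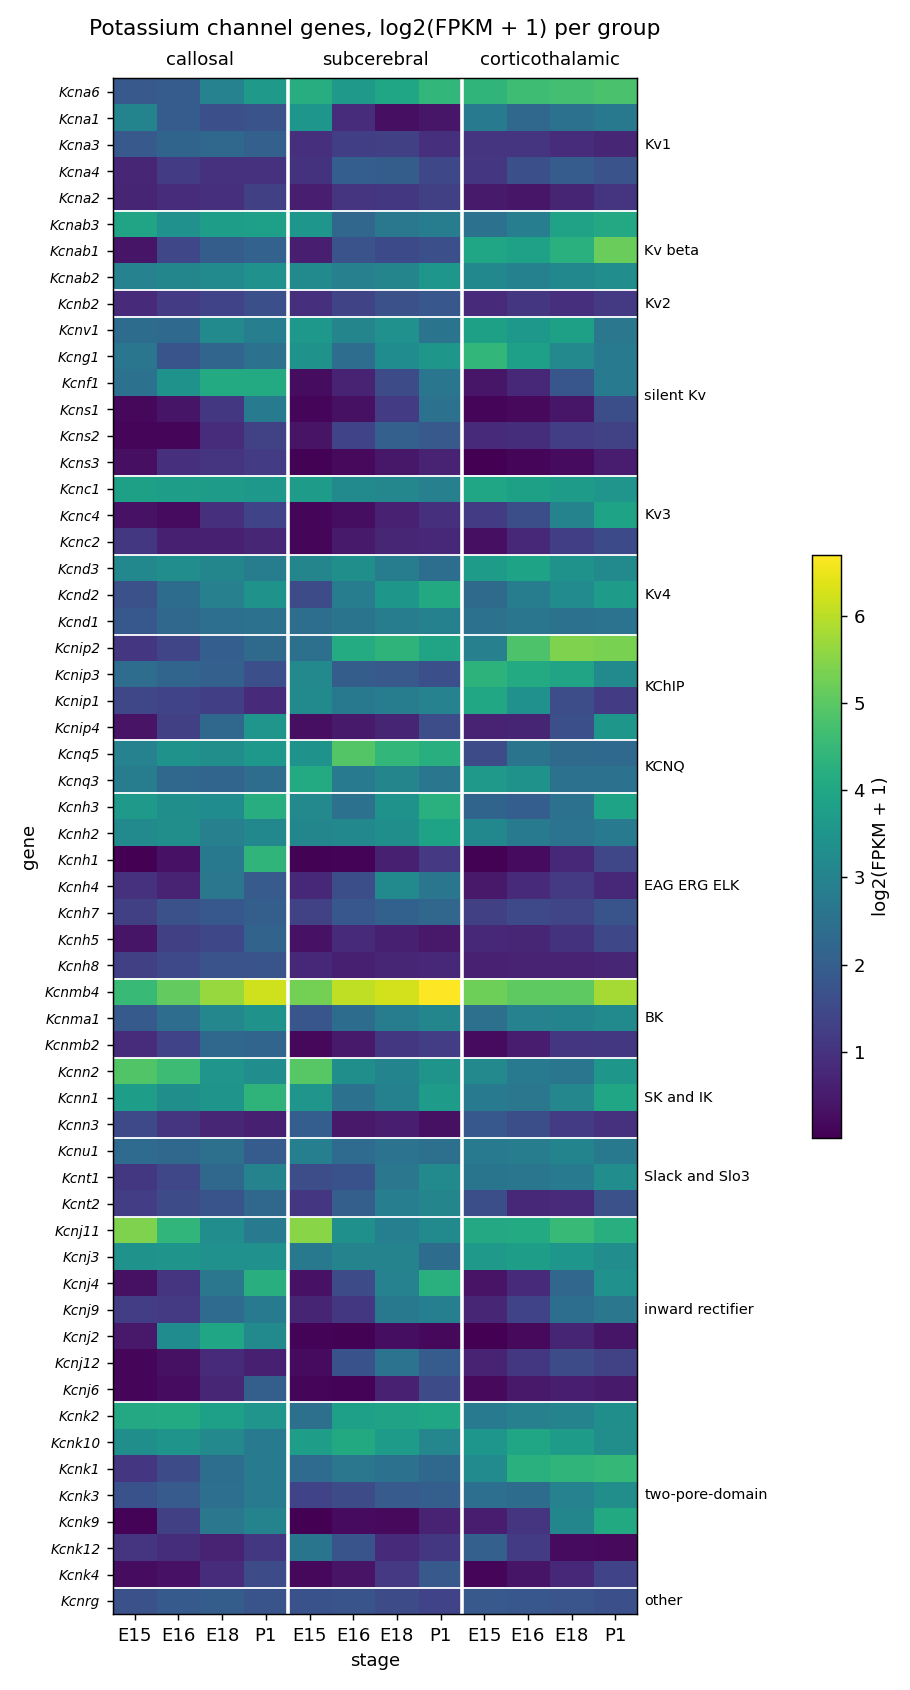
Expression of 58 of the 62 tested potassium channel genes as log2(FPKM + 1), 1 pooled value per column, with columns ordered by subtype and then stage and rows grouped by channel family in descending mean. Kcnmb4 is bright in all 12 columns, while Kcnab1 and Kcnip2 are brightest in the corticothalamic block.

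Between subtypes, the potassium channel genes differed in both directions. Against subcerebral neurons, 14 members were higher and 11 lower in callosal neurons, so 25 of 62 were called, beside 29.3% of all entries tested. Against corticothalamic neurons, 11 were higher and 14 lower in callosal neurons, again 25 of 62, beside 31.3%. Between subcerebral and corticothalamic neurons 20 were called, 9 higher and 11 lower in subcerebral neurons, beside 27.5%. Calls of at least 2-fold numbered 8, 11 and 8 in these comparisons, beside 4.29%, 6.15% and 3.6% of all entries. The median absolute difference over the 62 members was 0.47, 0.47 and 0.42 on the log2 scale, and over all tested entries 0.19, 0.18 and 0.19. Medians with sign lay near 0 for both (0.03, 0.00 and 0.02 for the members), so the members were spread more widely without leaning to a subtype.

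These counts rest on few values. With each stage left out in turn, between 8 and 31 members were called in the callosal and subcerebral comparison, with the lowest counts without E16 (9) and without E18 (8) and 14 without P1. The callosal and corticothalamic comparison gave between 17 and 35, and the subcerebral and corticothalamic one between 6 and 33, with 7, 6 and 10 without E16, E18 and P1. Calls that held whichever stage was left out numbered 8, 16 and 6, and the other calls each ended without at least 1 of the stages.

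A minority of members were called in the same direction against both other subtypes, and several of these sets were near the share of all tested entries. Higher in callosal neurons than in both other subtypes were 8 members, 12.9% of those tested, beside 7.06% of all tested entries. Among them were Kcna3, Kcnf1, Kcnh8, Kcnj2, Kcnmb2, Kcnn1 and Kcns3. Higher in corticothalamic neurons than in both were 7 (Kcnab1, Kcnc4, Kcnd3, Kcnip2, Kcnip3, Kcnk1 and Kcnk3), 11.3% beside 6.09%. Higher in subcerebral neurons than in both were 2, Kcnmb4 and Kcnq5, 3.23% beside 4.16%. Both calls held whichever stage was left out for 4 of the callosal genes (Kcna3, Kcnf1, Kcnh8 and Kcnmb2), for 4 of the corticothalamic genes (Kcnab1, Kcnd3, Kcnip3 and Kcnk3) and for Kcnq5. Against subcerebral neurons Kcnn1 was no longer called without E16, E18 or P1 (limma adjusted p = 0.134, 0.0979 and 0.0875), nor was Kcns3 (0.0825, 0.0783 and 0.0508), and against corticothalamic neurons Kcnn1 ended without E16 (0.0818). Lower in callosal neurons than in both were 4 (Kcna4, Kcna6, Kcnip2 and Kcnk10), 6.45% beside 7.69%. Lower in corticothalamic neurons than in both were 3 (Kcna2, Kcnh3 and Kcnq5), 4.84% beside 5.96%. Lower in subcerebral neurons than in both were 4 (Kcnc1, Kcnj3, Kcnk3 and Kcnk9), 6.45% beside 3.85%. The Kcnk10 calls ended without E16 (limma adjusted p = 0.0629 against subcerebral and 0.0516 against corticothalamic neurons) and E18 (0.0593 and 0.0575). The Kcna2 calls ended without E16 (0.204 against callosal and 0.191 against subcerebral neurons), E18 (0.147 and 0.187) and P1 (0.118 and 0.105). In 20 members, 32.3% of those tested, no subtype comparison passed, beside 46.7% of all tested entries. Counted by level alone, with no test, 8 members were highest in callosal neurons at all 4 stages (12.9%, beside 12.6% of all tested entries). In corticothalamic neurons 9 were (14.5%, beside 12.2%) and in subcerebral neurons 4 (6.45%, beside 6.95%).

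**Figure D2:**
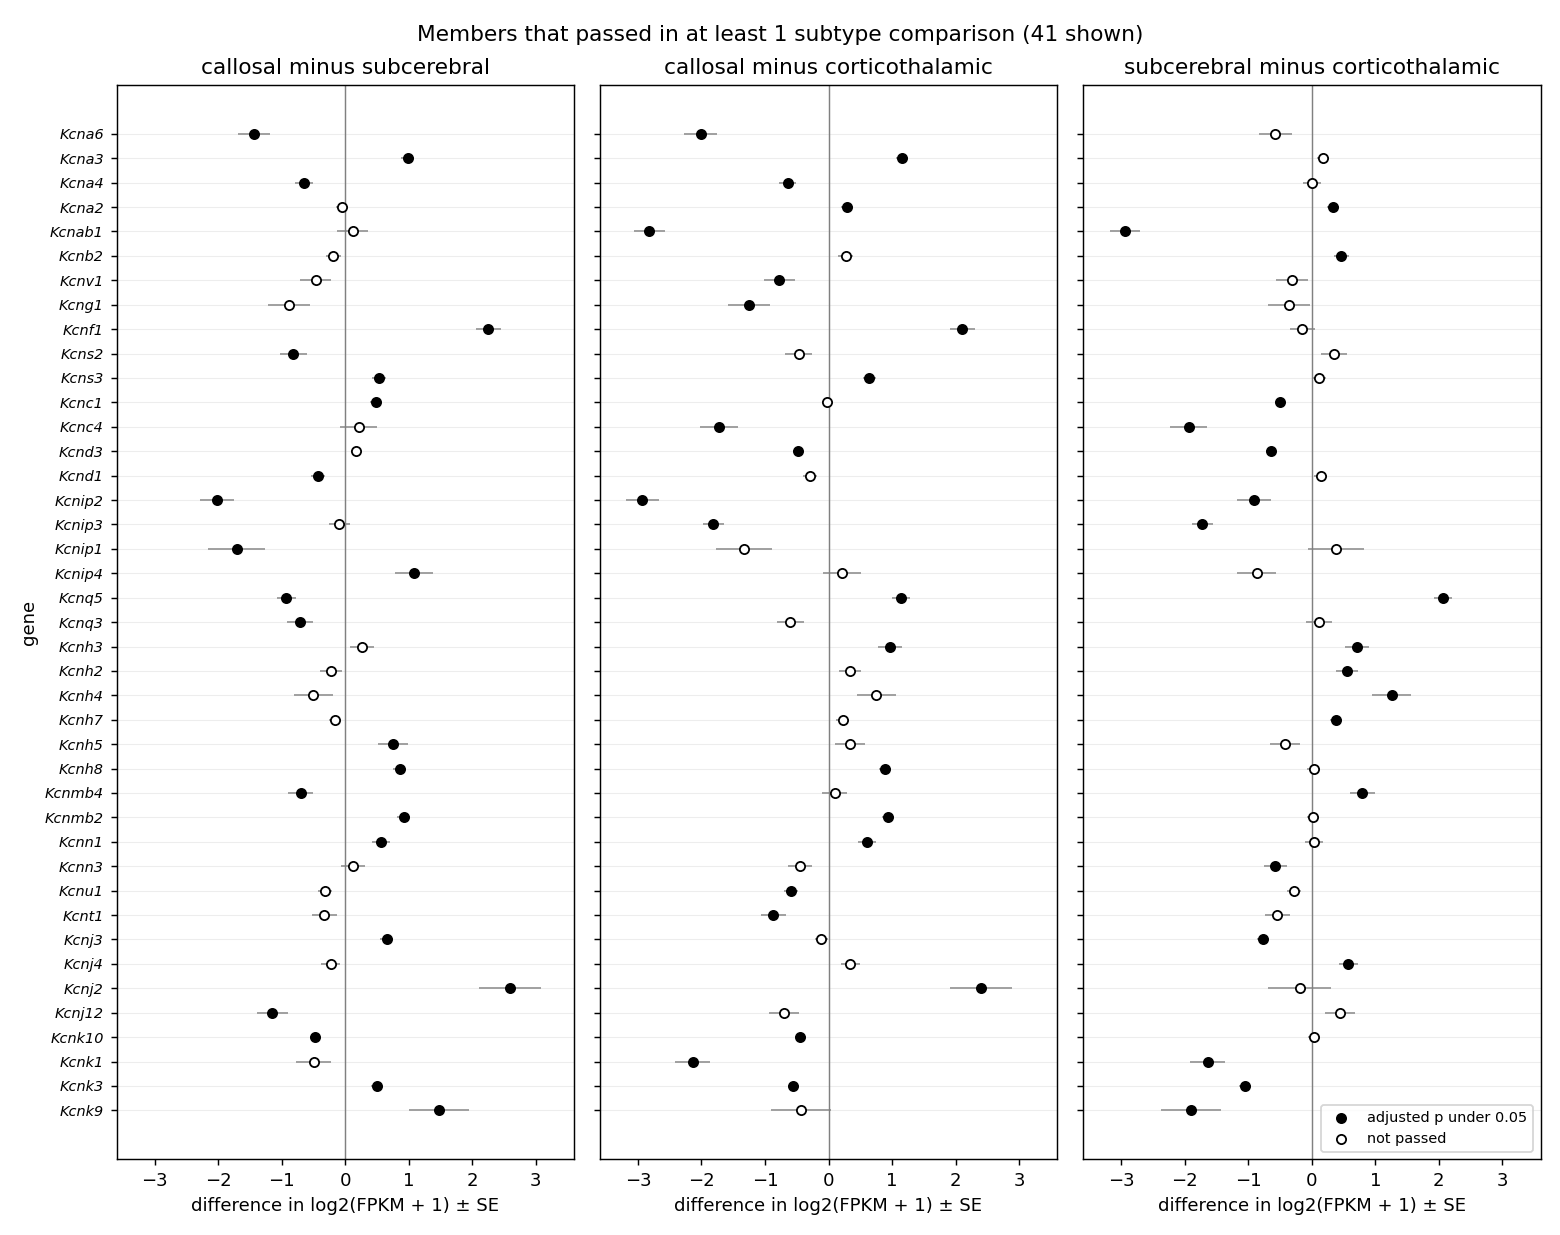
Differences in log2(FPKM + 1) between subtypes with the SE of the limma fit, for members that passed in at least 1 of the 3 subtype comparisons. Filled points passed at an adjusted p under 0.05 and open points did not. Kcnip2 and Kcnab1 lie farthest to the left in the callosal minus corticothalamic panel, at -2.93 and -2.82, and Kcnj2 and Kcnf1 farthest to the right.

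Kcnab1 encodes a beta subunit that binds Kv1 pores from the cytoplasm and can make them inactivate. In corticothalamic neurons its level was 14.3, 13.4, 18.2 and 35.1 FPKM at E15, E16, E18 and P1. In callosal neurons it was 0.307, 1.72, 2.99 and 3.30, and in subcerebral neurons 0.499, 2.29, 1.84 and 2.14. Every corticothalamic value lay above every other value, and the mean was 9.72 times that of callosal and 11.9 times that of subcerebral neurons. The difference was -2.82 ± 0.24 (callosal minus corticothalamic, limma adjusted p = 0.000143) and -2.94 ± 0.24 (subcerebral minus corticothalamic, limma adjusted p = 0.000753), while callosal and subcerebral neurons differed by 0.12 ± 0.24 (limma adjusted p = 0.74). It also rose from E15 to P1, by 1.34 ± 0.28 (limma adjusted p = 0.00283). Kcnab1 is known from subplate neurons too, the deepest early-born cortical cells. The 5 subplate genes listed, none of them at 0 in all groups of a subtype, summed to between 53.6 and 163 FPKM in corticothalamic neurons, between 12.1 and 38.6 in callosal and between 3.91 and 19.3 in subcerebral neurons. In P1 corticothalamic neurons Nxph4 was 109, Ctgf 30.9 and Cplx3 7.58. At E15 in the same subtype Nxph4 was 53.4, Ctgf 0.485 and Cplx3 0.0452. Moxd1 was at most 0.637 in any group. Nr4a2, of the same list, was 26.9, 17.7, 7.20 and 14.7 over the 4 stages in corticothalamic and 2.65, 14.8, 37.3 and 30.2 in callosal neurons, so it was higher in callosal neurons at E18 and P1. The part of subplate cells in the Kcnab1 result was not tested.

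RefSeq gives 3 starts for Kcnab1 (plus strand of chromosome 3, build GRCm38.p6, not the mm9 build of the table), and the table does not say which of them a subtype used. The 250 bases before each are printed 5′ to 3′ because Kcnab1 had the largest difference of any member between subcerebral and corticothalamic neurons, with matches to a GC box (GGGCGG, either strand) in capitals. The first start (chr3:64948962-64949211) has 6 CpG sites and 2 GC boxes, the second (chr3:65108764-65109013) has 2 CpG sites and the third (chr3:65187853-65188102) has 1, and the last 2 hold none of the motifs searched.
Kcnab1 start 1: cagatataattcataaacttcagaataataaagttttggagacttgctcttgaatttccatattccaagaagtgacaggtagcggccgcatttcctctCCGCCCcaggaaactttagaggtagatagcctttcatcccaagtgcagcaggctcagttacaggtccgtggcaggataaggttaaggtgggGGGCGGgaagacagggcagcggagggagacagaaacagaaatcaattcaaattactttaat
Kcnab1 start 2: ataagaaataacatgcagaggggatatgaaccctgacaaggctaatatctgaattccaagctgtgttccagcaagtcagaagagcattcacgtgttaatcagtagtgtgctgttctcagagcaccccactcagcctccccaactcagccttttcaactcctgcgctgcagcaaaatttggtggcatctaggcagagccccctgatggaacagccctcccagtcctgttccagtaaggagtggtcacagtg
Kcnab1 start 3: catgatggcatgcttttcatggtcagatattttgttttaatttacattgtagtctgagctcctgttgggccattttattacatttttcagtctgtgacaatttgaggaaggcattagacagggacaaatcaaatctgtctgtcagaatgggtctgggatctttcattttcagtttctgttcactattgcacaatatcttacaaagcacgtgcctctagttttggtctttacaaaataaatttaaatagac

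The Kv1 pores that Kcnab1 can bind differed between subtypes in different directions. Of 8 Kcna genes 5 were tested. Kcna6, the most abundant, was 19.8, 23.8, 24.9 and 26.7 FPKM in corticothalamic neurons over the 4 stages, 17.1, 11.2, 14.8 and 20.6 in subcerebral neurons, and 2.67, 2.91, 6.91 and 11.3 in callosal neurons. It was lower in callosal neurons by -2.01 ± 0.26 than in corticothalamic (limma adjusted p = 0.000883) and by -1.44 ± 0.26 than in subcerebral neurons (limma adjusted p = 0.00563). Kcna3 had the opposite pattern, at 2.66, 3.47, 3.71 and 3.15 in callosal neurons and at most 1.42 in any other group. Its differences were 0.98 ± 0.10 and 1.16 ± 0.10 (limma adjusted p = 0.000468 and 0.000115 against subcerebral and corticothalamic neurons). Kcna4, an inactivating Kv1 pore, was lower in callosal neurons by -0.65 ± 0.14 and -0.64 ± 0.14, calls that ended without E18 (limma adjusted p = 0.0834 and 0.0659) and, against subcerebral neurons, without E16 (0.0735).

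Kcna1, a Kv1 pore of axons, fell from E15 to P1 by -1.49 ± 0.51 (limma adjusted p = 0.0292). It went from 10.6 to 0.811 FPKM between E15 and E16 in subcerebral neurons and ended at 0.329, went from 7.22 to 2.31 over E15 to P1 in callosal neurons, and was 5.75 and 5.63 in corticothalamic neurons. The call ended without callosal neurons (limma adjusted p = 0.129), without subcerebral neurons (0.143) and without the E15 subcerebral value (0.0605). Of the other beta subunit genes, Kcnab2 lay between 6.57 and 10.5 FPKM in all 12 columns, and Kcnab3 differed by up to 2.22 on the log2 scale between subtypes in its change from E15 to P1.

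Kcnf1 encodes a silent subunit that joins Kv2 pores. In callosal neurons it was 4.73, 9.87, 16.1 and 16 FPKM at E15, E16, E18 and P1. It was 0.342, 0.698, 2.46 and 5.68 in corticothalamic and 0.185, 0.599, 1.97 and 5.22 in subcerebral neurons. Callosal neurons were highest at each of the 4 stages, and P1 was above E15 in all 3 subtypes. The differences were 2.25 ± 0.20 against subcerebral (limma adjusted p = 0.000312), 2.11 ± 0.20 against corticothalamic neurons (limma adjusted p = 0.00021) and 2.09 ± 0.23 for P1 against E15 (limma adjusted p = 9.18e-05), and all 3 held whichever stage or subtype was left out. The 250 bases before the RefSeq start of Kcnf1 (chr12:17176889-17177138, minus strand, GRCm38.p6) have 1 CpG site and are shown because they hold a T-box core (GGTGTGA, here on the reverse strand, in capitals), a motif in 3.33% of the 32851 RefSeq promoters searched.
Kcnf1: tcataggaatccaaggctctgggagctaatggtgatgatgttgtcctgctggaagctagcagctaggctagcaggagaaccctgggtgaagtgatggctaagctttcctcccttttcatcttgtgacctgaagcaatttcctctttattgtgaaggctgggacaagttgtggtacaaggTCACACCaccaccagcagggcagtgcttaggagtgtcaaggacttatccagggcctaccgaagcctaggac

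Kcnb2, a Kv2 pore, rose from E15 to P1 by 0.68 ± 0.14 (limma adjusted p = 0.0023). It was higher in subcerebral than corticothalamic neurons by 0.46 ± 0.12 (limma adjusted p = 0.0242), a call that ended without E16 (0.106), E18 (0.178) and P1 (0.118). Of 10 silent subunit genes 6 were tested. With stage, 4 were called as rising and none as falling, beside 33.8% and 33.6% of all tested entries. Kcns1 rose most, by 2.16 ± 0.20 (limma adjusted p = 4.09e-05), and at P1 was 5.68 in callosal, 4.78 in subcerebral and 2.06 in corticothalamic neurons. Kcng1 was highest in E15 corticothalamic neurons, at 20.7 FPKM, and went to 5.65 there by P1, while subcerebral neurons had 9.85 and 10.7. It was lower in callosal than corticothalamic neurons by -1.25 ± 0.33 (limma adjusted p = 0.0215), a call that ended without E15 (0.0718), E16 (0.102) and E18 (0.08). Kcnv1, with the highest mean of the group, went from 13 to 5.39 in the same neurons. It was lower in callosal than corticothalamic neurons by -0.78 ± 0.25 (limma adjusted p = 0.0448), and that call also ended without E15 (0.122), E16 (0.235) and E18 (0.139).

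The Kv3 pores (Kcnc genes) open and close fast and support high firing rates. Kcnc4 was highest in corticothalamic neurons, where it was 1.28, 2.06, 6.99 and 14.0 FPKM over the 4 stages. It was 0.254, 0.156, 0.891 and 1.55 in callosal and 0.0907, 0.201, 0.555 and 0.900 in subcerebral neurons. Corticothalamic neurons were thus highest at each stage. Callosal minus corticothalamic was -1.72 ± 0.29 (limma adjusted p = 0.00326). Subcerebral minus corticothalamic was -1.94 ± 0.29 (limma adjusted p = 0.0052, or 0.0721 without E18). Kcnc4 rose from E15 to P1 by 1.51 ± 0.34 (limma adjusted p = 0.00412), while the more abundant Kcnc1 fell by -0.48 ± 0.10 (limma adjusted p = 0.00243). Kcnc1 was 11.9, 8.30, 7.66 and 6.60 in subcerebral neurons and between 10.4 and 14.4 in both other subtypes. It was lower in subcerebral than in both. Callosal minus subcerebral was 0.48 ± 0.08 and subcerebral minus corticothalamic -0.50 ± 0.08 (limma adjusted p = 0.00522 and 0.00689). These calls ended without E16 (0.0604 and 0.0753) and without E18 (0.0635 and 0.0861). Kcnc2, a pore of fast-spiking interneurons, had no call. It was 1.14 in E15 callosal neurons, the column with the highest interneuron sum. In P1 corticothalamic neurons it was 1.87, where Dlx1 was 3.59 and Lhx6 was 3.00. The part of interneurons in these values was not tested.

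Kv4 channels carry the A-type current of dendrites and are built from Kcnd pores, KChIP calcium sensors (Kcnip) and the membrane proteins Dpp6 and Dpp10. The KChIP genes showed some of the largest subtype differences of the family. Kcnip2 was 6.59, 27.8, 41.5 and 39.7 FPKM in corticothalamic neurons at E15, E16, E18 and P1, 4.63, 16.4, 19.5 and 14.1 in subcerebral neurons, and 1.09, 1.65, 3.01 and 4.05 in callosal neurons. The order of subtypes was the same at each stage. Callosal neurons were lower by -2.93 ± 0.26 than corticothalamic (limma adjusted p = 0.000171) and by -2.02 ± 0.26 than subcerebral neurons (limma adjusted p = 0.00145). Subcerebral neurons were lower than corticothalamic by -0.91 ± 0.26 (limma adjusted p = 0.035), and this call ended without E16 (0.107), E18 (0.172), P1 (0.162) and the E15 subcerebral value (0.0519).

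Kcnip3, also known as a calcium-dependent repressor of transcription, was 19.3, 16.2, 14.1 and 8.29 FPKM in corticothalamic neurons. It was 4.29, 3.6, 3.19 and 2.15 in callosal and 8.01, 2.95, 2.71 and 2.13 in subcerebral neurons. It was thus highest in corticothalamic neurons throughout. Callosal minus corticothalamic was -1.81 ± 0.17 and subcerebral minus corticothalamic -1.72 ± 0.17 (limma adjusted p = 0.000181 and 0.0011). Unlike Kcnip2, Kcnip3 fell with stage, by -1.13 ± 0.19 (limma adjusted p = 0.000922). Kcnip4 rose by 2.45 ± 0.35 (limma adjusted p = 0.000382), from at most 0.577 at E15 to 10.4 in callosal, 10.7 in corticothalamic and 2.04 in subcerebral neurons at P1. It was higher in callosal than subcerebral neurons by 1.08 ± 0.30 (limma adjusted p = 0.0302), which ended as a call without E16 (0.0967), E18 (0.18) and P1 (0.0918). Kcnip1 was 1.69, 1.55, 1.37 and 0.788 in callosal neurons and 8.12, 5.54, 6.13 and 6.88 in subcerebral neurons. Its difference of -1.71 ± 0.44 (limma adjusted p = 0.0225) ended as a call without E16 (0.0772), E18 (0.0894) and P1 (0.0604). In corticothalamic neurons Kcnip1 went from 15.3 to 1.27.

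**Figure D3:**
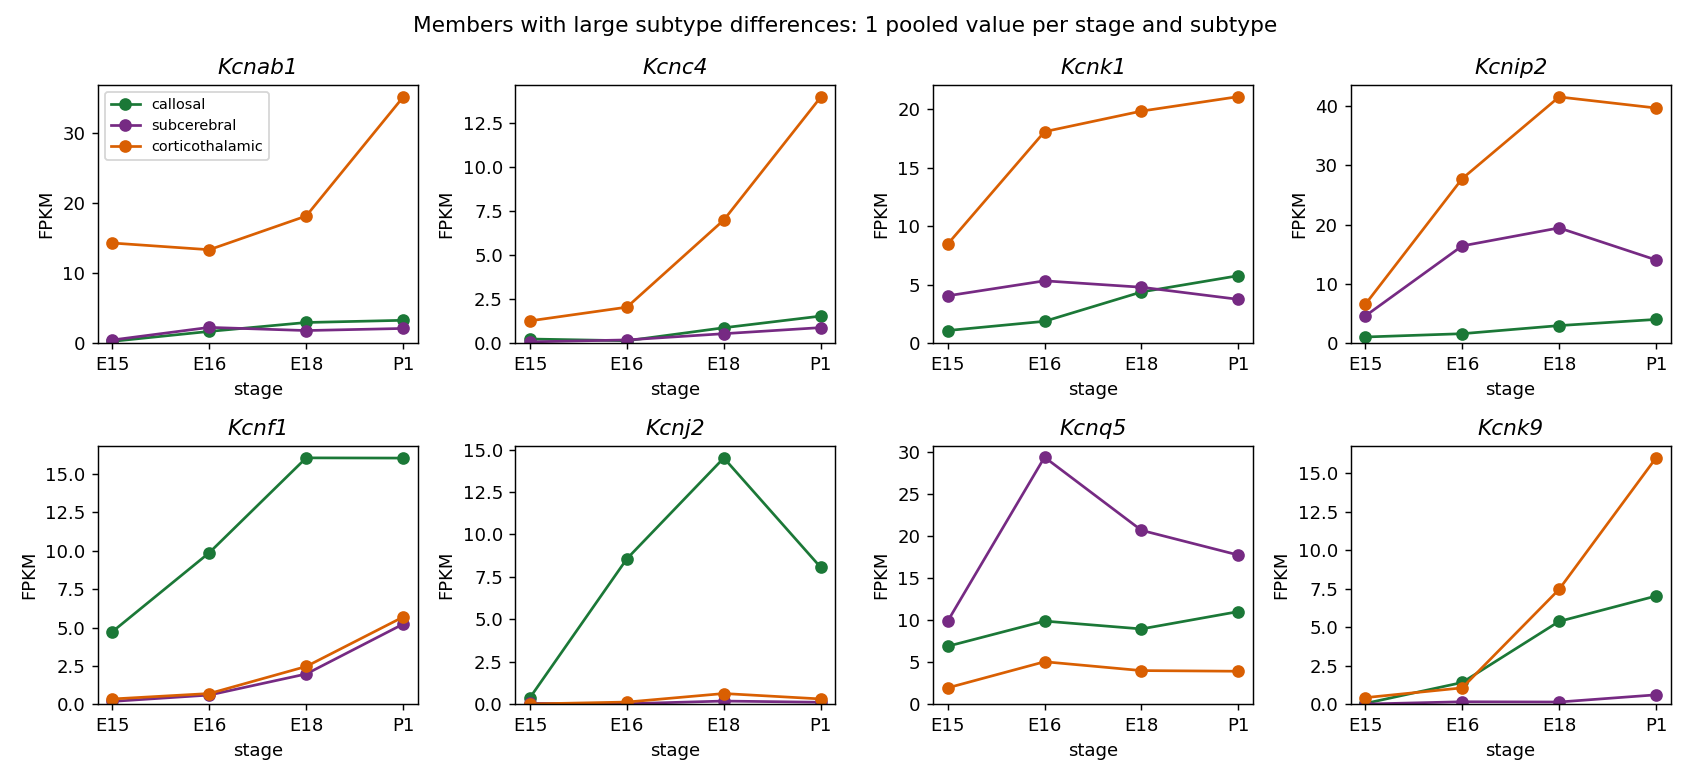
FPKM of 8 members by stage (evenly spaced on the x axis), with 1 pooled value per point and 1 line per subtype. Kcnab1, Kcnc4, Kcnk1 and Kcnip2 run highest in corticothalamic neurons, Kcnf1 and Kcnj2 in callosal neurons and Kcnq5 in subcerebral neurons, while Kcnk9 stays at or under 0.611 FPKM in subcerebral neurons.

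The Kv4 pores changed in opposite directions with stage. Kcnd2 rose by 1.88 ± 0.19 (limma adjusted p = 5.53e-05), from 2.17 to 9.71 FPKM in callosal, from 1.98 to 15.8 in subcerebral and from 4.04 to 12.2 in corticothalamic neurons. Kcnd3 fell by -0.49 ± 0.09 (limma adjusted p = 0.00149) and was highest in corticothalamic neurons at each stage, at 12.1, 14.0, 9.85 and 8.04, against 7.74, 8.79, 7.48 and 6.11 in callosal neurons. The auxiliary genes Dpp6 and Dpp10 rose with Kcnd2, by 1.51 ± 0.20 and 3.51 ± 0.41 (limma adjusted p = 0.000236 and 0.000137). Dpp10 went from 1.5 to 18.9 in callosal, from 0.0779 to 27.4 in subcerebral and from 1.83 to 18.9 in corticothalamic neurons.

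Kcnq3 and Kcnq5 encode pores of the M-current, which restrains repetitive firing. Kcnq5 was 9.88, 29.4, 20.7 and 17.8 FPKM in subcerebral neurons, 6.90, 9.90, 8.96 and 11 in callosal and 1.95, 5.06, 4.01 and 3.93 in corticothalamic neurons, in that order at each stage. All 3 subtype differences were called and held whichever stage was left out: 2.06 ± 0.15 for subcerebral against corticothalamic (limma adjusted p = 0.000383), 1.14 ± 0.15 for callosal against corticothalamic (0.000807) and -0.93 ± 0.15 for callosal against subcerebral neurons (0.00322). Kcnq3 fell from E15 to P1 by -0.99 ± 0.24 (limma adjusted p = 0.00564, or 0.0519 without subcerebral neurons). It went from 16.1 to 5.28 in subcerebral, from 11.3 to 4.75 in corticothalamic and from 6.20 to 4.29 in callosal neurons. Callosal neurons were lower than subcerebral by -0.71 ± 0.21 (limma adjusted p = 0.0326), a call that ended with each stage left out (0.0901, 0.0502, 0.155 and 0.0514 without E15, E16, E18 and P1).

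The Kcnh genes encode EAG, ERG and ELK channels, slow voltage-gated pores. Of 8 members 7 were tested. Of these, 5 were called as rising from E15 to P1 and none as falling. Between subcerebral and corticothalamic neurons, 4 were called higher in subcerebral neurons and none lower. All tested entries gave 33.8% and 33.6% for stage, and 14.7% and 12.8% for that subtype comparison. Kcnh1, an EAG pore, had the largest ratio of stage means of any member, with 7.57 FPKM at P1 against 0.0257 at E15. That ratio rests on E15 values far below 1 FPKM, whose error is unknown, and on a P1 mean that came mostly from callosal neurons. In callosal neurons Kcnh1 was 0.00855, 0.272, 5.53 and 19.8 at E15, E16, E18 and P1. At P1 it was 1.69 in corticothalamic and 1.19 in subcerebral neurons. P1 was above E15 in all 3 subtypes, by 2.28 ± 0.60 (limma adjusted p = 0.00952). The subtype difference, which grew with stage, was not called (1.40 ± 0.52 and 1.24 ± 0.52, limma adjusted p = 0.0757 and 0.104). Kcnh8, an ELK pore, was 1.41, 1.79, 2.31 and 2.38 in callosal neurons and at most 0.699 elsewhere, with differences of 0.85 ± 0.10 and 0.89 ± 0.10 (limma adjusted p = 0.000873 and 0.000425).

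Kcnh3, the most abundant Kcnh gene, was lowest in corticothalamic neurons, at 3.51, 3.03, 4.66 and 13.8 FPKM, against 11.2, 9.20, 8.66 and 17.3 in callosal and 7.97, 4.8, 9.75 and 18.3 in subcerebral neurons. Callosal exceeded corticothalamic neurons by 0.96 ± 0.19 (limma adjusted p = 0.00627). Subcerebral exceeded them by 0.71 ± 0.19 (0.0287), a call that ended without E15 (0.0504), E16 (0.0888) and E18 (0.161). Kcnh4 was higher in subcerebral than corticothalamic neurons by 1.26 ± 0.31 (limma adjusted p = 0.0211), and this too ended without E16 (0.0728), E18 (0.142) and P1 (0.113). The ERG pores Kcnh2 and Kcnh7 were the other 2 genes higher in subcerebral neurons, by 0.56 ± 0.17 and 0.38 ± 0.10 (limma adjusted p = 0.0447 and 0.0242), and neither call held without E16 (0.126 and 0.125), E18 (0.225 and 0.176) or P1 (0.164 and 0.112).

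All 3 tested BK genes were called as rising with stage, beside 33.8% of all tested entries. Kcnma1, the pore, rose by 1.18 ± 0.16 (limma adjusted p = 0.000301) from between 2.49 and 4.63 FPKM at E15 to between 7.40 and 9.99 at P1. Kcnmb4 rose by 1.22 ± 0.23 (limma adjusted p = 0.00162) and was highest in subcerebral neurons, at 38.9, 65.7, 74.8 and 103, against 22.1, 33.3, 49.7 and 74.2 in callosal and 36.7, 31.9, 32.1 and 55.2 in corticothalamic neurons. The subtype calls (-0.70 ± 0.20 for callosal minus subcerebral, 0.80 ± 0.20 for subcerebral minus corticothalamic, limma adjusted p = 0.0309 and 0.0225) ended without E16 (0.166 and 0.133), E18 (0.0939 and 0.143) and P1 (0.0814 and 0.0963). Kcnmb2, a beta subunit that makes BK channels inactivate, had the opposite subtype pattern: it was 0.825, 1.56, 3.72 and 3.58 in callosal neurons and at most 1.36 elsewhere. It was higher in callosal neurons by 0.92 ± 0.10 and 0.93 ± 0.10 (limma adjusted p = 0.000636 and 0.000314), and rose by 1.10 ± 0.11 (6.25e-05).

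The SK genes (Kcnn1 to Kcnn3) encode calcium-activated pores of the afterhyperpolarization. Kcnn2, the most abundant of them, was 28.5, 23.2, 10.3 and 8.74 FPKM in callosal neurons, 30.0, 9.18, 7.16 and 10.2 in subcerebral and 7.87, 5.79, 5.19 and 10.7 in corticothalamic neurons. Its 3 highest values were those of E15 in the first 2 subtypes and of E16 in callosal neurons, and no comparison was called. Kcnn3 fell by -1.16 ± 0.21 (limma adjusted p = 0.00138) and Kcnn1 rose by 0.66 ± 0.17 (0.0068, or 0.0586 without callosal and 0.0572 without corticothalamic neurons). Of the sodium-activated pores, Kcnt1 rose by 1.40 ± 0.23 (limma adjusted p = 0.000729), from 1.15 to 7.05 in callosal, from 1.99 to 8.05 in subcerebral and from 5.11 to 8.89 in corticothalamic neurons. Kcnu1, best known from sperm, lay between 2.91 and 7.12. It was lower in callosal than corticothalamic neurons (limma adjusted p = 0.00477), and the call held whichever stage was left out. The difference was -0.44, -0.61, -0.55 and -0.75 at E15, E16, E18 and P1.

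Inward rectifiers pass potassium more easily into the cell than out and hold the resting potential. Kcnj2, a strong rectifier, was 0.392, 8.57, 14.5 and 8.06 FPKM in callosal neurons at E15, E16, E18 and P1. It was 0.0156, 0.128, 0.631 and 0.312 in corticothalamic and 0.0517, 0.0312, 0.188 and 0.116 in subcerebral neurons. From E16 on, callosal neurons stood far above both other subtypes. The differences were 2.59 ± 0.49 and 2.39 ± 0.49 (limma adjusted p = 0.00689 and 0.00745), which ended as calls without E16 (0.0655 and 0.0683) and E18 (0.0669 and 0.0565). Kcnj2 is also known from microglia, and 6 microglial genes summed to between 4.12 and 29.5 FPKM in callosal neurons, between 4.05 and 7.28 in subcerebral and between 5.59 and 8.70 in corticothalamic neurons. Csf1r, a defining microglial receptor, was 0.437, 5.33, 2.78 and 2.86 in callosal neurons and at most 0.140 elsewhere, and 5 of the 6 genes were highest in callosal neurons at all 4 stages. The sixth, Aif1, was lowest there at each stage, at 1.88, 5.76, 4.51 and 4.78 against 5.41, 8.34, 6.53 and 5.71 in corticothalamic neurons. No gene of the list was at 0 in all groups of a subtype. The part of microglia in the Kcnj2 result was not tested. The 250 bases before the RefSeq start of Kcnj2 (chr11:111065914-111066163, plus strand, GRCm38.p6) have 14 CpG sites. They are shown, with 2 GC boxes in capitals, for contrast with the CpG-poor sequence of Kcnf1, another gene high in callosal neurons.
Kcnj2: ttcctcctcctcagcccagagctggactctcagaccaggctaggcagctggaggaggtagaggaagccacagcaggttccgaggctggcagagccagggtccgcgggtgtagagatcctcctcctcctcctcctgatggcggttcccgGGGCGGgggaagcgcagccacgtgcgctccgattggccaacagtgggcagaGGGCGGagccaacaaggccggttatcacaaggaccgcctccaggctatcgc

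Kcnj4 and Kcnj12 are strong rectifiers too. Kcnj4 made the largest called change of any member, 3.61 ± 0.18 (limma adjusted p = 4.08e-06). It was 0.237, 1.05, 5.30 and 17.3 FPKM in callosal, 0.275, 1.90, 6.82 and 18.2 in subcerebral and 0.294, 0.783, 3.64 and 9.54 in corticothalamic neurons, higher at each stage than at the one before in all 3 subtypes. It was higher in subcerebral than corticothalamic neurons by 0.57 ± 0.15 (limma adjusted p = 0.0273), a call that ended without E16 (0.137), E18 (0.176) and P1 (0.105). Kcnj12 was 0.162, 2.25, 4.86 and 2.86 in subcerebral neurons and 0.0771, 0.235, 0.776 and 0.505 in callosal neurons. That difference of -1.15 ± 0.24 (limma adjusted p = 0.00966) ended as a call without E16 (0.0842), E18 (0.0766) and P1 (0.0635). From E15 to P1 Kcnj12 rose by 0.95 ± 0.27 (limma adjusted p = 0.0136, or 0.0541 without corticothalamic neurons), with its highest value at E18 in all 3 subtypes.

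GIRK channels, the rectifiers opened by G proteins, were made of an even and a late set. Kcnj3 lay between 8.74 and 12.4 FPKM in callosal and corticothalamic neurons and was 5.54, 6.98, 7.05 and 4.22 in subcerebral neurons. Subcerebral neurons were below both. Callosal minus subcerebral was 0.65 ± 0.10 and subcerebral minus corticothalamic -0.77 ± 0.10 (limma adjusted p = 0.00312 and 0.00301). Both calls held whichever stage was left out. Kcnj9 rose by 1.90 ± 0.17 (limma adjusted p = 2.99e-05), from between 0.633 and 1.35 at E15 to between 5.38 and 6.52 at P1. Kcnj6 rose by 1.23 ± 0.31 (limma adjusted p = 0.00693), from at most 0.127 to 3.14 in callosal, 1.99 in subcerebral and 0.398 in corticothalamic neurons, a call that ended without callosal (0.0784) and without subcerebral neurons (0.0919).

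Kcnj11 encodes the pore of the channel closed by ATP, which also needs a sulfonylurea receptor such as Abcc8. Kcnj11 was 41.4, 20.5, 8.75 and 5.98 FPKM in callosal neurons, 44.7, 9.43, 6.42 and 8.21 in subcerebral neurons, and 15.7, 16.3, 21.8 and 17.6 in corticothalamic neurons. Abcc8 was 79.1, 36.4, 15.3 and 6.87 in callosal, 77.3, 15.1, 9.63 and 10.6 in subcerebral, and 25.4, 29.7, 37.0 and 23.4 in corticothalamic neurons. Both were highest at E15 in callosal and subcerebral neurons, and highest at E18 in corticothalamic neurons. Averaged over subtypes both fell, by -1.59 ± 0.56 and -2.07 ± 0.63 (limma adjusted p = 0.0333 and 0.0177). The Kcnj11 call ended without callosal neurons (0.238), without subcerebral neurons (0.202) and without the E15 subcerebral value (0.143).

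**Figure D4:**
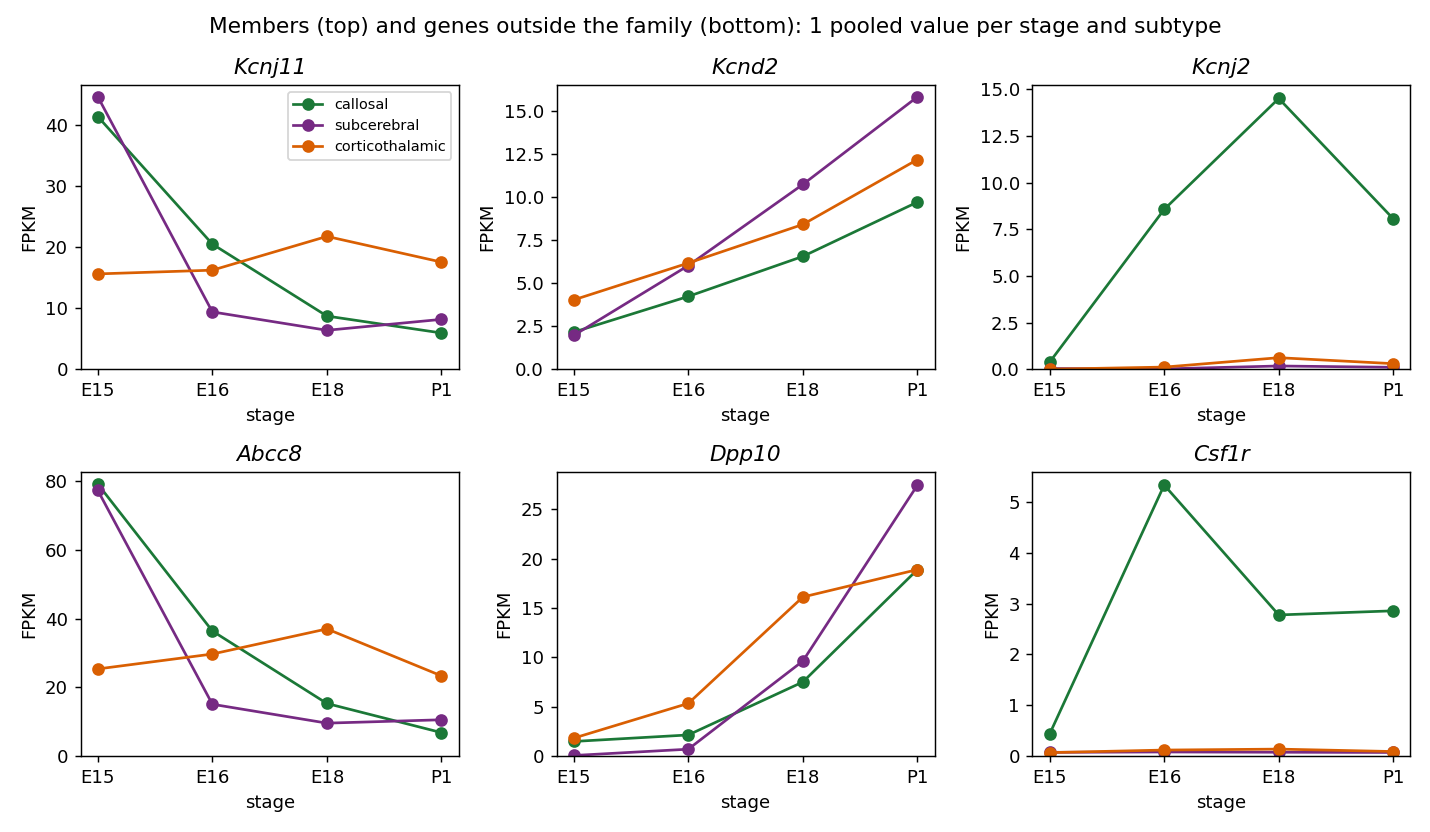
FPKM by stage (evenly spaced on the x axis) and subtype, 1 pooled value per point, for 3 members in the top row and below each a gene outside the family: Abcc8 under Kcnj11, Dpp10 under Kcnd2 and Csf1r under Kcnj2. Kcnj11 and Abcc8 are highest at E15 in callosal and subcerebral neurons, and Csf1r is at most 0.140 FPKM outside callosal neurons.

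Two-pore-domain channels are the leak that sets the resting potential, and 7 of 14 members were tested. None was called higher in callosal or subcerebral than in corticothalamic neurons, beside 15.3% and 14.7% of all tested entries. In each case 3 were called lower, beside 16% and 12.8%. Kcnk1 was 8.48, 18.1, 19.8 and 21.1 FPKM in corticothalamic neurons. It was 1.11, 1.89, 4.40 and 5.79 in callosal and 4.07, 5.35, 4.8 and 3.77 in subcerebral neurons. The lowest corticothalamic value was thus above every other value. Callosal minus corticothalamic was -2.14 ± 0.27 (limma adjusted p = 0.000885). Subcerebral minus corticothalamic was -1.64 ± 0.27 (limma adjusted p = 0.00689, or 0.053 without E16 and 0.0814 without E18).

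The acid-sensitive leak genes Kcnk3 and Kcnk9 were both lowest in subcerebral neurons and both rose with stage. Kcnk3 was 4.45, 4.20, 6.86 and 8.89 FPKM in corticothalamic, 2.24, 2.82, 4.47 and 6.0 in callosal and 1.59, 1.94, 2.84 and 3.13 in subcerebral neurons, in that order at each stage. Subcerebral minus corticothalamic was -1.05 ± 0.09 (limma adjusted p = 0.000753), callosal minus corticothalamic -0.55 ± 0.09 (0.00264) and callosal minus subcerebral 0.49 ± 0.09 (0.00582, or 0.0636 without E18). Kcnk9 was 0.428, 1.06, 7.46 and 16 in corticothalamic, 0.0517, 1.41, 5.38 and 7.03 in callosal and 0.0118, 0.161, 0.145 and 0.611 in subcerebral neurons. Its rise was 2.39 ± 0.55 (limma adjusted p = 0.00459, or 0.0616 without callosal neurons). Callosal minus subcerebral was 1.48 ± 0.47 and subcerebral minus corticothalamic -1.90 ± 0.47 (limma adjusted p = 0.047 and 0.0226). These calls ended without E16 (0.119 and 0.0799), E18 (0.237 and 0.155) and P1 (0.143 and 0.11).

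The stretch- and lipid-gated leak genes differed from one another. Kcnk4 rose by 1.42 ± 0.12 (limma adjusted p = 2.83e-05), from at most 0.182 FPKM at E15 to between 1.55 and 2.69 at P1. Kcnk10 fell by -0.48 ± 0.10 (limma adjusted p = 0.00242) and was between 5.73 and 15.9. Kcnk2, with the highest mean of the leak genes, had no call. It was 15.5, 16, 12.7 and 10.3 in callosal, 4.58, 12.9, 13.6 and 14.8 in subcerebral and 6.01, 6.61, 7.04 and 9.17 in corticothalamic neurons, so that callosal neurons were highest at E15 and E16 and subcerebral neurons at E18 and P1. Kcnk12, a silent leak subunit, went from 3.22 to 0.142 in corticothalamic and from 5.15 to 1.14 in subcerebral neurons, and was 1.03 and 1.15 in callosal neurons.

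From E15 to P1 most members that changed rose. Of 62, 36 rose and 9 fell, so 45 were called, beside 67.4% of all entries tested, of which 33.8% rose and 33.6% fell. Among the members 58.1% rose and 14.5% fell. The median change was 0.67 on the log2 scale for the members and 0.00 for all tested entries, and 27 calls were at least 2-fold, beside 16.8%. Leaving out 1 subtype at a time gave between 36 and 38 calls, and 28 held whichever subtype was left out. Within single subtypes, which have no test, 25 members were at least 2-fold higher and 3 lower at P1 than at E15 in callosal neurons, 22 and 7 in subcerebral, and 17 and 6 in corticothalamic neurons. All tested entries gave 10.4% and 6.47%, 14.1% and 11.6%, and 8.72% and 6.54%.

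**Figure D5:**
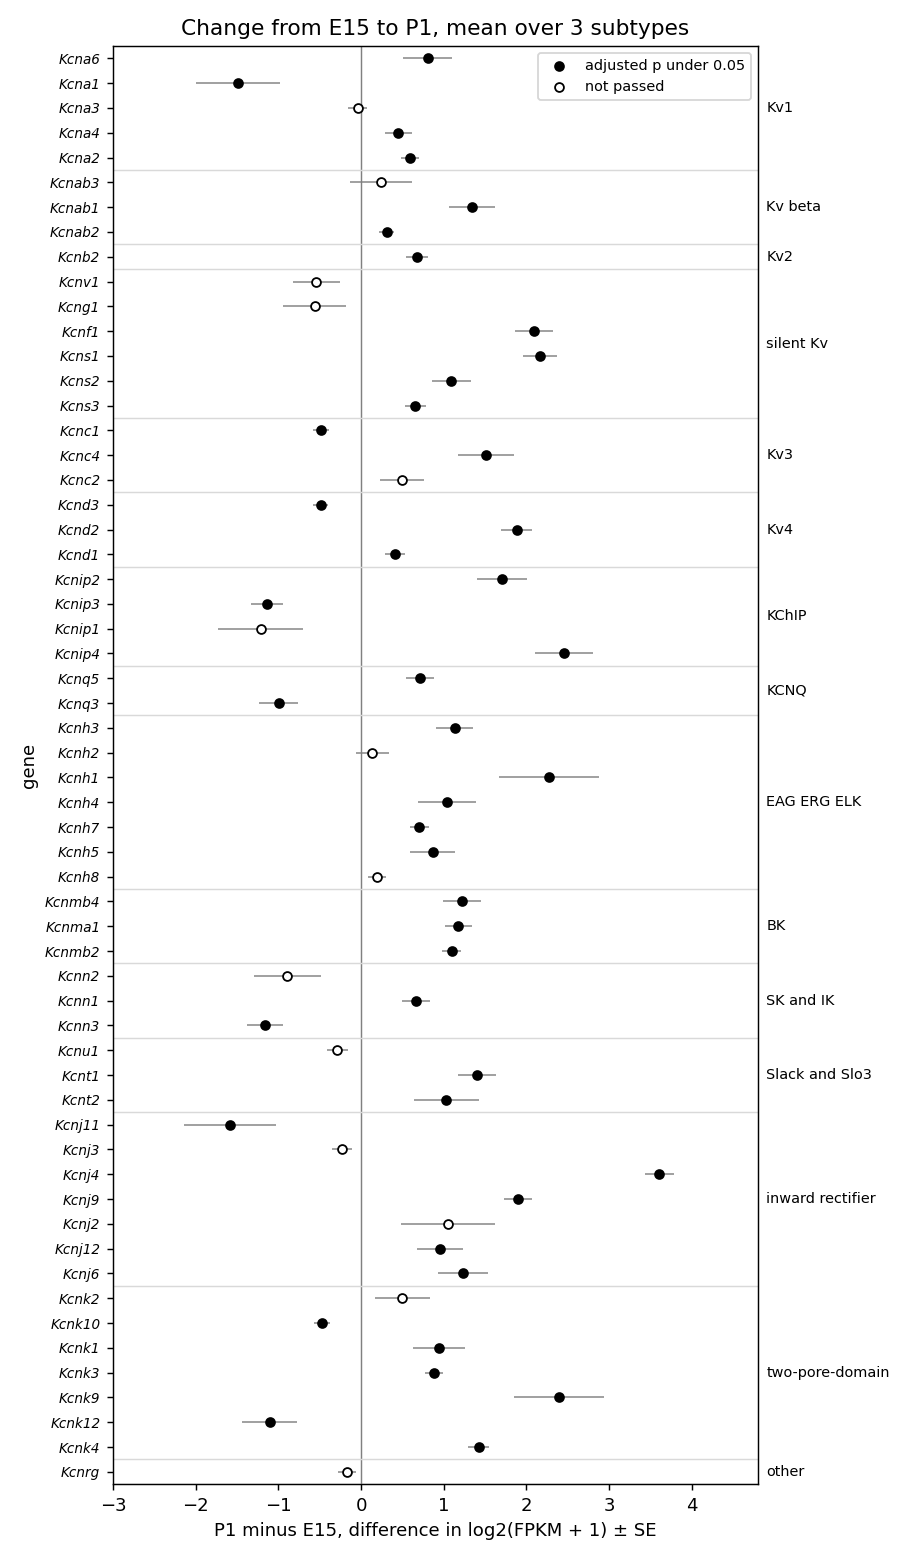
Change from E15 to P1 in log2(FPKM + 1), averaged over the 3 subtypes, with the SE of the limma fit, for 58 of the 62 tested members grouped by family. Filled points passed at an adjusted p under 0.05 and open points did not; 35 filled points lie to the right of 0 and 9 to the left, with Kcnj4 farthest right at 3.61.

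The step from E15 to E16 had the most members past 2-fold in subcerebral neurons. There 8 members were at least 2-fold higher and 8 at least 2-fold lower at E16 on the log2(FPKM + 1) scale, beside 3.42% and 2.29% of all tested entries. Callosal neurons had 3 and 1 (beside 1.79% and 0.925%), and corticothalamic neurons 3 and 0 (0.853% and 0.531%). The 8 that were lower were Kcna1, Kcnab3, Kcng1, Kcnip3, Kcnj11, Kcnn2, Kcnn3 and Kcnq3. The 8 that were higher were Kcna4, Kcnab1, Kcnd2, Kcnip2, Kcnj4, Kcnj12, Kcnk2 and Kcnq5. These steps rest on 1 value each and were not tested. Without the E15 subcerebral value, 29 members were called between subcerebral and corticothalamic neurons and 40 between P1 and E15.

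A list of 37 genes for proteins that bind, place or work beside these channels was counted for comparison, with 33 tested. From E15 to P1, 17 rose and 6 fell, with a median of 0.77, beside 33.8% and 33.6% of all tested entries. Callosal neurons had 4 higher and 12 lower than subcerebral (beside 14.1% and 15.2%), and 2 higher and 13 lower than corticothalamic neurons (beside 15.3% and 16%). Lgi1, a secreted protein that binds Kv1 complexes at synapses and axons, was 21.3, 26.3, 28.3 and 32.4 FPKM in corticothalamic, 11.5, 12.6, 14.6 and 23.2 in subcerebral and 1.51, 1.65, 1.84 and 3.29 in callosal neurons. It was lower in callosal neurons by -3.21 ± 0.09 and -2.41 ± 0.09 (limma adjusted p = 5.46e-07 and 9.39e-06 against corticothalamic and subcerebral neurons). The order of subtypes was that of Kcna6. Cntn2, of the same list, had another order. It was 501, 288, 159 and 107 in callosal, 164, 188.5, 239 and 152 in corticothalamic and 226, 44.3, 44.6 and 32.3 in subcerebral neurons. The potassium-chloride cotransporter Slc12a5 rose by 2.53 ± 0.19 (limma adjusted p = 1.51e-05) and the sodium-potassium pump subunit Atp1b1 by 4.44 ± 0.35 (2.09e-05).

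RefSeq promoters were found for 70 of the 95 members, 95 sequences in all, of which the 250 bases before the start were searched on both strands. A GC box (GGGCGG) was in 42 of them, 44.2%, against 32.7% of all 32851 sequences of the same length, and a TATA box (TATAAA) in 3, 3.16% against 12.4%. The median number of CpG sites was 7, against 6, and the median share of G and C bases was 58.4%, against 52.4%. The part of base composition in the motif shares was not tested. A proneural E-box (CAGATG) was in 15 member sequences, 15.8% against 14.4%. The T-box core was in 5, 5.26% against 3.33%, and the POU octamer ATGCAAAT in 1, 1.05% against 1.60%. Among the members highest in corticothalamic neurons, none of 10 sequences from 6 genes held the T-box core, and among those highest in callosal neurons 1 of 9 from 7 genes did, that of Kcnf1. These are matches of letters only.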

How the data were processed

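RNA from 24 libraries of sorted neurons, 2 for each of 12 groups of stage and subtype, is reported in a single table. The submitters' processing notes name TopHat2, Cufflinks and the mouse build mm9; for versions, annotation, strand use and the pooling of libraries nothing is given in the sources used here. The deposited values have no unit in the header and were read as FPKM because Cufflinks was used, values are never negative and column sums differ (355965 to 473871). They hold 1 pooled value per group, so depth is unknown and no interval can be given.

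Entries that reached 1 FPKM in 2 or more columns were tested with limma-trend in R 4.3.3 (limma 3.58.1 with robust moderation, statmod 1.5.0) on log2(FPKM + 1), with additive stage and subtype terms and 6 residual degrees of freedom, Benjamini-Hochberg adjustment over all 13946 and a threshold of 0.05. The script was tested on simulated data. Genes described with tests are the 12 largest called differences per comparison, the highest-mean member of each family, 5 members whose stage change differed in sign between subtypes, and Kcnab1; others were added after their values were seen. Some members enter the counts and fits but are not reported here by name, value or in the figures. The members and lists were chosen with earlier results of these data known. Alternatives were a pseudocount of 0.1, no filter, a 5 FPKM filter, median-ratio and quantile scaling, leaving out each stage or subtype, fits on only the groups compared, and leaving out the E15 subcerebral value, the last chosen after seeing the data. Promoters come from RefSeq (GRCm38.p6), and exon overlaps from GENCODE.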

Additional observations from a re-analysis of the deposited data

Results flagged for a closer look

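The change from E15 to P1 ran in opposite directions in different subtypes for 2 members, by at least 0.5 on the log2(FPKM + 1) scale each way. Kcnab3, a Kv1 beta subunit, was 4.76 FPKM at E15 and 15.6 at P1 in corticothalamic neurons, a change of 1.53, and 10.5 and 6.12 in subcerebral neurons, a change of -0.69, so the changes were 2.22 apart. In callosal neurons it was 14.0 and 12.8. Kcnk2, a stretch- and lipid-gated leak channel, was 4.58 and 14.8 in subcerebral neurons, a change of 1.5, and 15.5 and 10.3 in callosal neurons, a change of -0.55, so the changes were 2.05 apart. In corticothalamic neurons it changed by 0.54. With 1 pooled value per group neither difference was tested. Both subcerebral changes start from the E15 column, in which corticothalamic markers were highest for that subtype. At E15 corticothalamic neurons had 4.76 FPKM of Kcnab3 and 6.01 of Kcnk2. From E16 to P1 Kcnab3 went from 3.67 to 6.12 and Kcnk2 from 12.9 to 14.8 in subcerebral neurons. The part of the E15 column in either change was not tested.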

How the results depend on the processing

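The 50 differences of members covered by the naming rule had 531 values under alternatives, of which 474 kept direction and side of the threshold, 56 kept direction and lost the call, and 1 turned: Kcnab1 between callosal and subcerebral neurons, not called to begin with, was -0.0068 without E18 (up to 0.25 with another stage left out). In 32 of the 50 the call held in every alternative run that included the gene. No call was lost with a pseudocount of 0.1, median-ratio or quantile scaling. None was lost with a 5 FPKM filter among the genes that passed it. That filter removed Kcna3, Kcnh8, Kcnj12, Kcnmb2 and Kcns1, so it could not test their calls. Leaving out stages in turn gave 8 to 31 calls for callosal against subcerebral, 17 to 35 for callosal against corticothalamic and 6 to 33 for subcerebral against corticothalamic neurons, and leaving out subtypes gave 36 to 38 for P1 against E15. Fits with a stage left out have fewer values and fewer residual degrees of freedom. Only the 8 values of subcerebral and corticothalamic neurons gave 13 calls in place of 20, and P1 against E15 gave 34 from its 6 values alone. Without the E15 subcerebral value, an alternative chosen after seeing the data, the counts were 29 and 40. No paired analysis was possible because the table holds 1 pooled value per group. Depth is unknown, so values far below 1 FPKM carry an error that cannot be stated.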
